A study of Mus musculus with 23 samples.

Results

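Described here are 9 genes of the major histocompatibility complex (MHC) class I pathway in mouse hippocampus: the heavy chains H2-D1, H2-K1, H2-Q5 and H2-Q7, the light chain B2m, the peptide transport and loading genes Tap1 and Tapbp, the immunoproteasome subunit Psmb8 and the regulator Nlrc5. They were picked by name from the 13766 genes of the deposited table, and 9 of 9 were found there. The hippocampi came from FCG mice (C57Bl/6J background), a model in which the type of gonad is inherited apart from the sex chromosomes because the testis-determining gene Sry has been moved from the Y chromosome to an autosome. The animals were about 12 months old, had standard chow and no treatment named, and gave 1 library each. There were 4 groups, named by chromosomes and F for ovaries or M for testes: XXF (n = 5), XXM (n = 6), XYF (n = 6) and XYM (n = 6). Pups were caged after weaning by the look of their genitalia, so cage and gonad cannot be told apart. XY mice of this model are known to carry on their Y chromosome a copied block of X-linked genes, so XY against XX is not a contrast of ordinary sex chromosomes.

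MHC class I molecules carry peptides from a cell's own proteins to its surface, where cytotoxic T cells and natural killer cells read them. The proteasome cuts the peptides, the TAP transporter moves them into the endoplasmic reticulum, and tapasin and other chaperones load them onto a heavy chain bound to beta-2-microglobulin. Interferons raise most of these genes, partly through NLRC5, and neurons of the hippocampus are known to use class I molecules in shaping synapses.

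The estimated counts summed to between 10257751 and 36078221 per library (median 21831384). Levels are in CPM, counts per 1000000 of the library total, which was scaled except for Xist and the Y-linked genes. Xist lay at 918 CPM or more in every XX library and at 2.91 or less in every XY library but XYF replicate 4, at 96.7. No Y-linked gene checked passed 0.438 CPM in an XX library, and the table holds no like check of the gonad. The 8 hippocampus markers were all in the table and summed to between 1156 and 1388 CPM in the 12 XY libraries and to between 1218 and 1378 in the 11 XX libraries. Choroid plexus RNA was uneven: its 9 markers summed to 1966 CPM or more in 7 libraries (XXF 1, XXM 4, XYF 1, XYM 1) and to 226 or less in the other 16. XYM replicate 1, among the 7 rich libraries, and XYF replicate 1, among the poor, stood apart from their groups for most of the 9 genes, and the results are given with and without them.

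By the positions in the deposited table, 7 of the 9 genes lie on chromosome 17. H2-K1 (chr17:33996012-34000333, minus strand), Tapbp (chr17:33919478-33929290), Tap1 (chr17:34187556-34197225), Psmb8 (chr17:34198195-34201454), H2-D1 (chr17:35263094-35267497), H2-Q5 (chr17:35394099-35395630) and H2-Q7 (chr17:35439155-35443773) lie in the MHC, all but H2-K1 on the plus strand. B2m (chr2:122147687-122153082) and Nlrc5 (chr8:94472763-94527272), both on the plus strand, lie apart. H2-Q5 is annotated as a polymorphic pseudogene in the GENCODE annotation of GRCm38, and the other 8 code for proteins. B2m lies wholly within Patl2 on the other strand, and Tap1, Tapbp and Psmb8 overlap Psmb9, Gm19412 and Gm20496 there by 209, 1008 and 2139 bases. These overlaps are of whole gene spans, introns included, and overlap of exons was not examined. Of these partners only Psmb9 was in the table, at a mean of 1.75 CPM. The libraries were strand-specific but the use of strand in counting was not stated. Whether reads of these partners entered the counts of the 4 genes was not tested.

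Heavy chain genes resemble each other, and counting can split or mix their reads. Of all 100-base windows of the H2-Q5 transcripts, 14% were found unchanged in transcripts of other genes, and 11.4% in those of H2-Q7. The share was 12.0% for H2-Q7, 3.59% for H2-D1 and 0.957% for H2-K1, and 0 for B2m, Nlrc5, Tap1 and Psmb8. Values of H2-Q5 and H2-Q7 are therefore uncertain as values of single genes.

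The bases before the start sites of the heavy chain genes and B2m are shown because they hold the elements through which class I genes are known to answer to NF-kappa B, to interferon regulatory factors and to NLRC5. Of the 9 genes, 7 matched the promoter windows of RefSeq (GRCm38.p6), each 250 bases before to 50 after a start site; H2-Q5 and Nlrc5 did not. The windows were searched on both strands for the kappa B element of enhancer A (GGGGATTCCCC, as read in H2-D1 itself), the core of an interferon regulatory factor (IRF) site (AANNGAAA), the gamma-interferon activation site or GAS (TTCNNNGAA), the core of a cyclic AMP response element or CRE (TGACG), as in the X2 box, and the CCAAT box, to which NF-Y binds (CCAAT), and no match overlapped another. Capitals mark every match in the 250 bases before the start, read 5′ to 3′ on the gene's strand. Of 2 start sites listed for H2-K1, the one that matches the annotated gene is used. The 4 stretches are chr17:35262844-35263093 for H2-D1, chr17:34000334-34000583 on the minus strand for H2-K1, chr17:35438905-35439154 for H2-Q7 and chr2:122147437-122147686 for B2m.
H2-D1: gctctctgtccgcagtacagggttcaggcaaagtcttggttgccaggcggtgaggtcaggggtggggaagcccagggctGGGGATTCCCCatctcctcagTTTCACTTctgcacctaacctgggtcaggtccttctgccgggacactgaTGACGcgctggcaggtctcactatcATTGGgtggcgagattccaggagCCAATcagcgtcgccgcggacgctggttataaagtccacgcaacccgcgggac
H2-K1: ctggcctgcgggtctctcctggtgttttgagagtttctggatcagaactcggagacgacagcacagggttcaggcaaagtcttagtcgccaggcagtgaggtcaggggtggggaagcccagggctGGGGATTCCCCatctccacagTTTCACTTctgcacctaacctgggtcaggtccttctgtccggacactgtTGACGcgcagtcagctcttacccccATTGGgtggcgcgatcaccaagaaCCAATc
H2-Q7: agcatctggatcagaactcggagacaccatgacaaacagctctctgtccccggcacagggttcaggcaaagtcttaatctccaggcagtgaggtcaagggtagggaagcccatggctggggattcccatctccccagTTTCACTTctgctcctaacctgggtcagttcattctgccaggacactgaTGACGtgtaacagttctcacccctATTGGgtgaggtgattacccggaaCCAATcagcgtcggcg
B2m: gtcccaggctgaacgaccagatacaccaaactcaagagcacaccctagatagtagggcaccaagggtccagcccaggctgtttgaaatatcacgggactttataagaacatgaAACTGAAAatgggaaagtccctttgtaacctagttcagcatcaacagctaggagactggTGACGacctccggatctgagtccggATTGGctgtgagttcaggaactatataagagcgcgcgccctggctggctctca

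The IRF core was matched in these 4 windows, as TTTCACTT in the 3 heavy chain genes and AACTGAAA in B2m, and in 23.9% of 32851 promoters of the same length. In H2-D1, H2-K1 and H2-Q7 the CRE core followed the IRF core by 49 bases, from first base to first base, and a CCAAT box on the other strand followed by a further 25, 25 and 24. The distances were 59 and 25 bases in B2m. The kappa B letters of H2-D1 were also found in H2-K1, in both 21 bases before the IRF core, and in 0.0304% of all promoters (10 promoters of 9 genes, H2-Q6 among them). The closest stretch of H2-Q7 differed from it by C11A, counted from 1 at the element's first base. Tap1 held a CRE core and a CCAAT box, Psmb8 a GAS and Tapbp 2 CCAAT boxes. CRE cores were found in 20.8% of all promoters, CCAAT boxes in 37.4% and GAS in 8.30%.

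**Figure D1:**
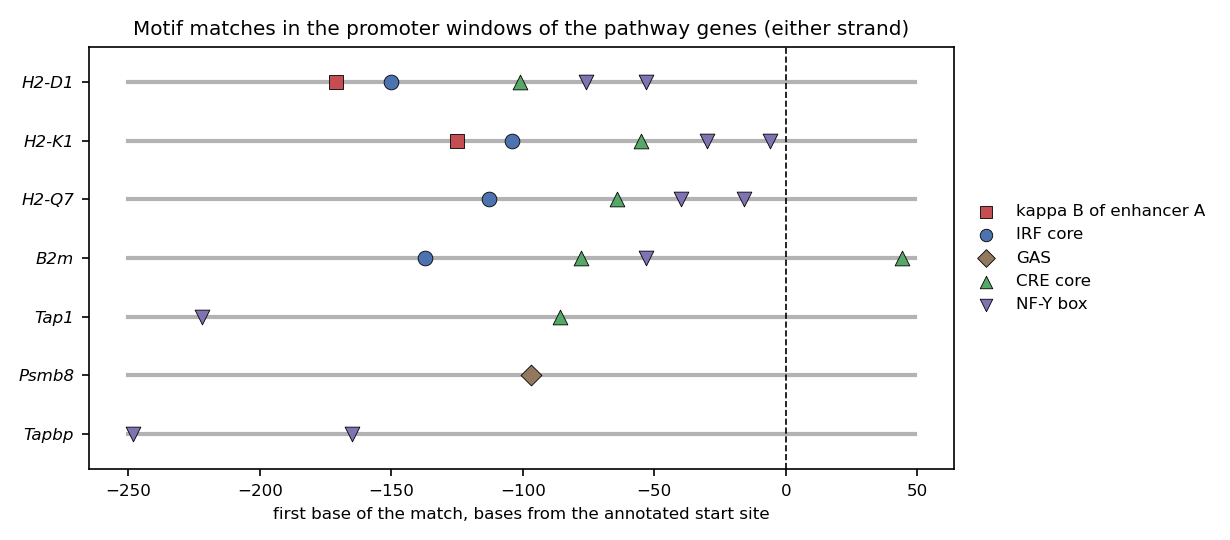
Matches to the 5 motifs in the promoter windows of 7 genes, by distance in bases from the annotated start site (dashed line), 1 grey line per window. In H2-D1, H2-K1 and H2-Q7 the IRF core, the CRE core and both CCAAT boxes (NF-Y box in the legend) come in the same order, and the kappa B letters, read from H2-D1, are also found in H2-K1.

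Per kilobase of exon, B2m had the highest mean level over the 23 libraries, 102 CPM per kb. H2-D1 followed at 19.2, H2-K1 at 12.0 and Tapbp at 7.89 CPM per kb. Psmb8 (1.3), Tap1 (0.892), H2-Q5 (0.830), H2-Q7 (0.330) and Nlrc5 (0.225) were far lower. The light chain thus exceeded each heavy chain in RNA, while the interferon-raised subunit, the transporter and the regulator were scarce. Behind these values stood 788 to 3009 estimated counts per library for B2m, 489 to 1872 for H2-D1 and 329 to 1235 for H2-K1. H2-Q5 had 9.25 to 65.0, H2-Q7 8 to 75.9 and Nlrc5 10.8 to 93.7 estimated counts, so those 3 rest on few reads.

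XY mice with ovaries had the highest mean of the 4 groups for all 9 genes. Their mean CPM exceeded that of XY mice with testes by folds from 1.16 for Tapbp to 3.29 for H2-Q7, and the 5 genes H2-D1, H2-K1, H2-Q7, B2m and Psmb8 passed the test there. The 3 groups other than XYF lay close together for B2m, Tap1, Tapbp and Psmb8, whereas H2-Q5 and H2-Q7 also had means 2.47 and 2.11 times higher in XXF than in XXM. H2-Q7 and Nlrc5 entered the table only through XYF, and H2-Q5 only through XXF. The high levels of these genes in those groups were thus in part a condition of their presence in the table. Lower levels in whole tissue cannot tell fewer expressing cells from less RNA per cell.

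**Figure D2:**
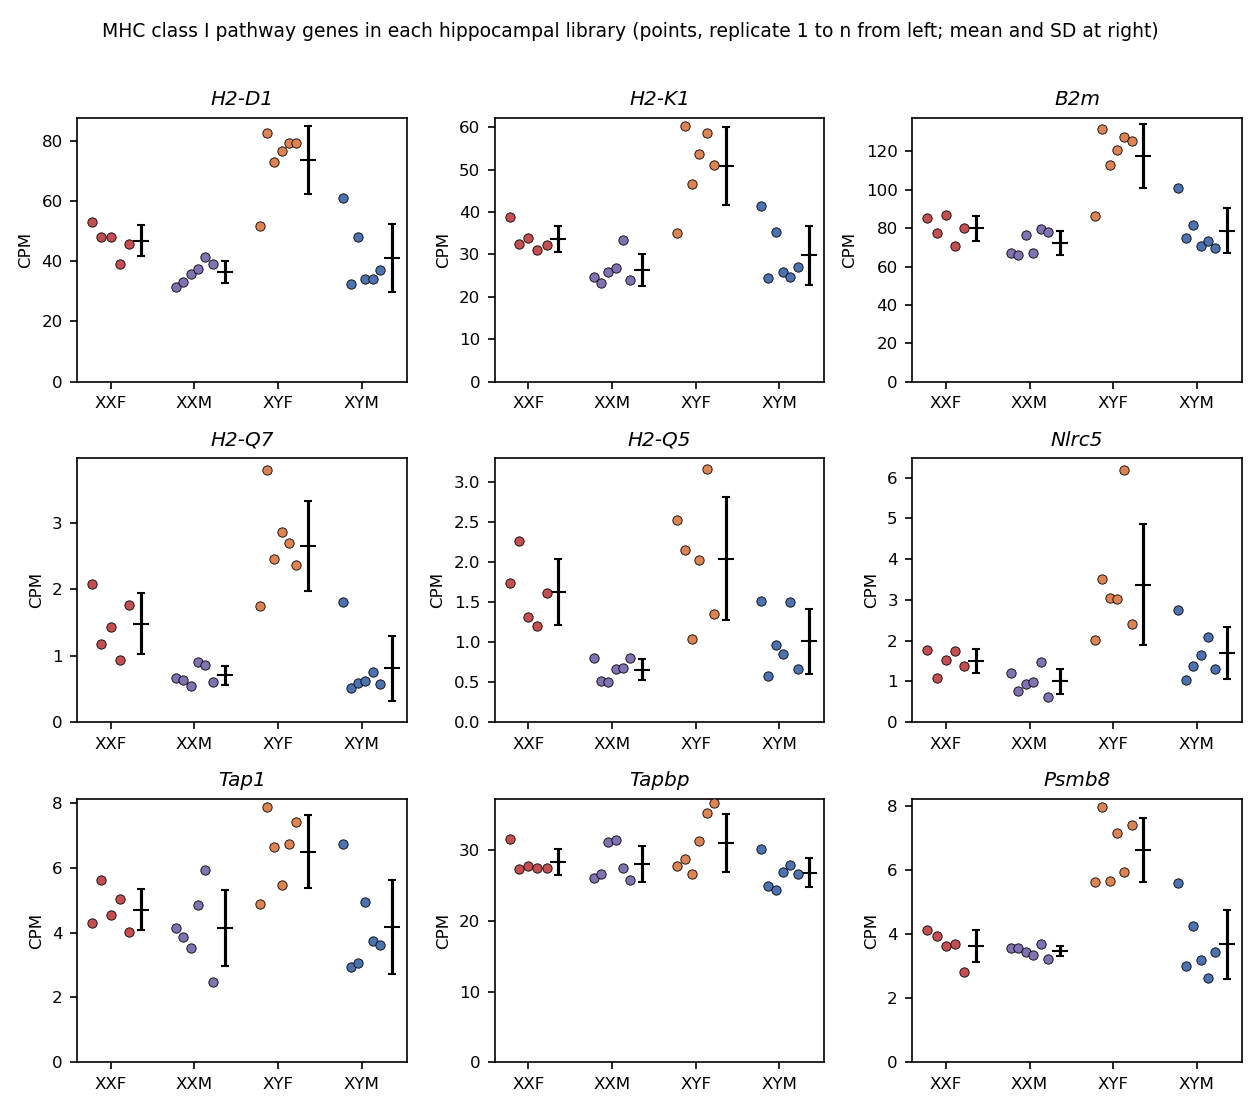
CPM of each gene in each library (points, from left replicate 1 to n of each group) with the group mean and SD at the right of the points, on axes that start at 0. XYF replicates 2 to 6 form the highest set for H2-D1, H2-K1 and B2m, and replicate 1 of XYM is the highest XYM point in all 9 panels.

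H2-D1 encodes a classical heavy chain that presents peptides to CD8 T cells. In XXF replicates 1 to 5 it stood at 53.2, 48.1, 48, 39.0 and 45.6 CPM. The lowest, median and highest values were 31.4, 36.8 and 41.4 CPM in XXM, 51.7, 77.9 and 82.5 in XYF, and 32.4, 35.5 and 61.0 in XYM. All XYF libraries but replicate 1 were higher than every library of the other groups, and XYF replicate 1 lay within the XXF range. The XYM and XXM ranges overlapped, with XYM replicate 1 above both XXM and XXF. H2-D1 was higher in XYF than in XXF by 0.66 on the log2 scale (SE 0.14, adjusted p = 0.0263, edgeR quasi-likelihood) and lower in XYM than in XYF, at a log2 difference of -0.84 (SE 0.13, adjusted p = 0.00189). The call against XXF did not hold in 10 of the 32 alternatives, 9 of which left out 1 XXF or XYF library, with adjusted p between 0.000603 and 0.158 over all of them.

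H2-K1, the other classical heavy chain of this strain, had 38.7, 32.4, 33.8, 31.0 and 32.3 CPM in XXF replicates 1 to 5. Its lowest, median and highest values were 23.2, 25.3 and 33.5 CPM in XXM, 34.9, 52.3 and 60.3 in XYF, and 24.4, 26.4 and 41.4 in XYM. As for H2-D1, XYF replicates 2 to 6 were above all other libraries, and XYF replicate 1 lay within the XXF range. H2-K1 was lower in XYM than in XYF, at a log2 difference of -0.76 (SE 0.13, adjusted p = 0.00334). The difference of XYF from XXF, 0.59 (SE 0.14), missed the threshold (adjusted p = 0.0646) and was called in 5 of 32 alternatives. Without XYF replicate 1 it was 0.68 (adjusted p = 0.00622). That was the lowest XYF library, so leaving it out could only widen the difference.

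B2m encodes the light chain that all class I heavy chains share. Its XXF values were 85.3, 77.5, 86.9, 70.7 and 79.9 CPM. The lowest, median and highest values were 65.9, 71.9 and 79.7 CPM in XXM, 86.2, 123 and 132 in XYF, and 69.9, 74.2 and 101 in XYM. As for the classical heavy chains, XYF replicates 2 to 6 were above every other library, and the remaining groups overlapped. B2m rose in XYF over XXF by 0.55 (SE 0.10, adjusted p = 0.00396) and was lower in XYM than in XYF, at a log2 difference of -0.58 (SE 0.09, adjusted p = 0.00274). Both calls passed in all 32 alternatives, which include leaving out XYF replicate 1 or XYM replicate 1. These were the lowest XYF and the highest XYM library, so leaving either out could not narrow the difference of XYM from XYF. Leaving out XYF replicate 1 could likewise not narrow that of XYF from XXF.

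H2-Q7 encodes a non-classical heavy chain of the Qa-2 family, part of which is held in the membrane by a lipid anchor. Its XXF values were 2.09, 1.18, 1.43, 0.931 and 1.77 CPM. The lowest, median and highest were 0.538, 0.648 and 0.912 CPM in XXM, 1.75, 2.58 and 3.80 in XYF, and 0.512, 0.603 and 1.81 in XYM. Every XXF library was above every XXM library, which held for 0.421% of all genes, and XYM replicate 1, at 1.81 CPM, lay above XYF replicate 1, at 1.75. H2-Q7 was lower in XYM than in XYF, at a log2 difference of -1.66 (SE 0.28, adjusted p = 0.00316). Without XYM replicate 1, the highest XYM library, the difference was -2.11 (adjusted p = 1.31e-05). H2-Q7 entered the table only through XYF, so its high XYF level was in part a condition of its presence there. Its difference of XXM from XXF, -1.06 (SE 0.30), was not called (adjusted p = 0.622).

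H2-Q5, the annotated pseudogene, had 1.73, 2.26, 1.32, 1.20 and 1.61 CPM in the XXF libraries. Its lowest, median and highest values were 0.504, 0.664 and 0.799 CPM in XXM, 1.04, 2.09 and 3.17 in XYF, and 0.576, 0.904 and 1.51 in XYM. Every XXF library again lay above every XXM library (0.421% of all genes), while XXF and XYF overlapped, with 2 XYF libraries above the XXF range, and XYM reached from the XXM range into the XXF range. H2-Q5 met the table's limit of 20 counts in every library of a group only in XXF (lowest count 20.2, against 13.7 in XXM). Its separation of XXF from XXM was therefore in part a condition of its presence in the table. XXM differed from XXF by -1.27 (SE 0.29), which had an unadjusted p of 0.000160 but an adjusted p of 0.550. XYM differed from XYF by -1.01 (SE 0.26, adjusted p = 0.172).

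Psmb8 encodes an inducible catalytic subunit that replaces Psmb5 in the immunoproteasome. Its XXF values were 4.13, 3.93, 3.62, 3.70 and 2.82 CPM. The lowest, median and highest were 3.22, 3.50 and 3.69 CPM in XXM, 5.63, 6.55 and 7.96 in XYF, and 2.64, 3.32 and 5.59 in XYM. Every XYF library lay above every library of the other 3 groups, over XYM only by the gap from 5.59 to 5.63 CPM. Such a separation of XYF from XYM was found for 0.182% of all genes and of XYF from XXF for 0.552%. Psmb8 rose in XYF over XXF by 0.86 (SE 0.16, adjusted p = 0.00733) and was lower in XYM than in XYF, at a log2 difference of -0.83 (SE 0.15, adjusted p = 0.00654). The ratio of Psmb8 to Psmb5 CPM was 0.0721 ± 0.0106 (SD, n = 6) in XYF, against 0.0431 ± 0.00749 (n = 5) in XXF, 0.0426 ± 0.00287 (n = 6) in XXM and 0.0431 ± 0.00999 (n = 6) in XYM.

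Tap1, a subunit of the peptide transporter, had 4.31, 5.61, 4.55, 5.04 and 4.02 CPM in the XXF libraries. The lowest, median and highest were 2.48, 4.01 and 5.94 CPM in XXM, 4.89, 6.68 and 7.86 in XYF, and 2.94, 3.68 and 6.73 in XYM. All pairs of groups overlapped, and 4 of 6 XYF libraries were above the XXF range. No comparison called Tap1 with all libraries. XYM differed from XYF by -0.63 (SE 0.19, adjusted p = 0.331), and this stayed uncalled in 31 of 32 alternatives. The exception left out XYM replicate 1, where the difference was -0.82 (adjusted p = 0.0398). That was the highest XYM library for Tap1, so leaving it out could only widen the difference. Tapbp encodes tapasin, which holds an empty heavy chain at the transporter. It had 31.7, 27.4, 27.8, 27.5 and 27.5 CPM in XXF, and its lowest, median and highest were 25.8, 27.1 and 31.4 in XXM, 26.7, 30.1 and 36.7 in XYF, and 24.4, 26.8 and 30.2 in XYM. Its groups overlapped in every pair, its coefficient of variation over all libraries (10.8%) was the lowest of the 9, and it was called in none of the 8 comparisons. The 95% interval of XYM over XYF for Tapbp ran from -0.37 to -0.05 on the log2 scale before adjustment (adjusted p = 0.481).

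Nlrc5 encodes the factor that drives transcription of class I genes at their conserved promoter boxes. It stood at 1.78, 1.08, 1.54, 1.75 and 1.37 CPM in XXF. The lowest, median and highest values were 0.608, 0.963 and 1.48 CPM in XXM, 2.02, 3.04 and 6.20 in XYF, and 1.02, 1.51 and 2.75 in XYM. Every XYF library was above every XXF library (0.552% of all genes) and every XXM library (0.523%), and 4 of 6 were above all XYM libraries. Nlrc5 entered the table only through XYF, so its high XYF level was in part a condition of its presence there. Nlrc5 differed between XYF and XXF by 1.11 (SE 0.28, adjusted p = 0.132), between XYM and XXM by 0.79 (SE 0.27, adjusted p = 0.921), and between XYM and XYF by -0.96 (SE 0.26, adjusted p = 0.202). None of these pairwise differences was called.

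**Figure D3:**
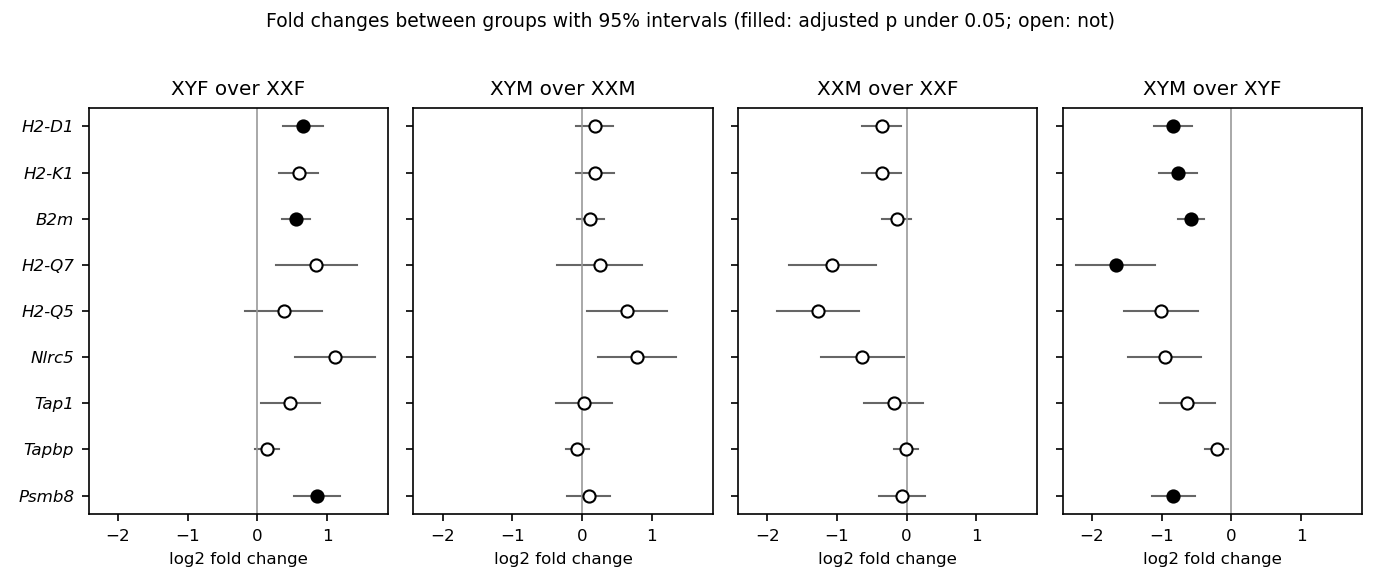
Log2 fold changes of the 9 genes in 4 pairwise comparisons (points, filled where the adjusted p was under 0.05) with 95% intervals (lines). The filled points lie in XYF over XXF (H2-D1, B2m and Psmb8) and in XYM over XYF (H2-D1, H2-K1, B2m, H2-Q7 and Psmb8), and the panels of XYM over XXM and XXM over XXF hold none.

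Averaged over both gonads, XY hippocampi had more RNA of the light chain and the regulator. B2m rose by 0.34 (SE 0.07, adjusted p = 0.0166) and Nlrc5 by 0.95, a 1.93-fold difference (SE 0.19, adjusted p = 0.0193). These were 2 of the 9 members, while 0.283% of all genes were called in this comparison and 0.24% were called higher. Nlrc5 entered the table only through XYF. By gonad, B2m differed by 0.55 in mice with ovaries and by 0.12 (SE 0.09, adjusted p = 0.958) in mice with testes. Nlrc5 differed by 1.11 and 0.79. Of these only the B2m value in mice with ovaries was called, and the interaction was called for neither gene. Averaged over gonads, all 9 members had positive values, with a median of 0.42 against 0.00 over all genes. H2-D1 (0.42, adjusted p = 0.0541), Psmb8 (0.48, 0.0619) and H2-K1 (0.39, 0.0989) fell short of the threshold, and Tapbp lay at 0.03. The B2m call did not hold in 4 alternatives and the Nlrc5 call in 4, the exact permutation test among both; the adjusted p over the alternatives ran from 0.000408 to 0.366 for B2m and from 0.00152 to 0.0679 for Nlrc5. The libraries whose omission ended a call were XXF replicate 4 for B2m (adjusted p = 0.0538) and XXF replicate 2, XXM replicate 2 and XYM replicate 1 for Nlrc5 (0.0506, 0.0544 and 0.0520).

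Averaged over both sex chromosome complements, hippocampi of mice with testes had less RNA of the 4 heavy chains and of the light chain than those of mice with ovaries. H2-Q7 had a log2 difference of -1.36 (SE 0.20, adjusted p = 0.00175), H2-Q5 of -1.14 (SE 0.19, adjusted p = 0.00476), H2-D1 of -0.60 (SE 0.09, adjusted p = 0.00331), H2-K1 of -0.56 (SE 0.09, adjusted p = 0.00476) and B2m of -0.36 (SE 0.07, adjusted p = 0.0129). These 5 of 9 members compare with 0.16% of all genes called and 0.145% called lower. Of the 5, H2-Q7 entered the table only through XYF and H2-Q5 only through XXF. All 9 members had negative values, with a median of -0.56 against 0.00 over all genes. Psmb8 (-0.45) and Nlrc5 (-0.79), both at an adjusted p of 0.0947, Tap1 (-0.41, 0.225) and Tapbp (-0.11, 0.385) were not called. The exact permutation test, which called 6 genes in all, kept H2-Q7 (adjusted p = 0.0242); H2-D1 and H2-Q5 stood at 0.0670, H2-K1 at 0.0881 and B2m at 0.146.

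Compared pair by pair, the calls lay in the comparisons that hold XYF. XYF against XXF called 3 members (H2-D1, B2m and Psmb8), all higher, where 0.291% of all genes were called and 0.262% were called higher. XYM against XYF called 5 (H2-D1, H2-K1, H2-Q7, B2m and Psmb8), all lower, where 0.225% of all genes were called, each of them lower. Of these 5, H2-Q7 entered the table only through XYF, so its call was in part a condition of its presence there. Fitted on the XYF and XYM libraries alone, H2-K1 (adjusted p = 0.0552) and Psmb8 (0.113) missed the threshold. The comparisons of XYM with XXM, XXM with XXF and XYM with XXF called 0 members each, where 0.116%, 0% and 0.131% of all genes were called with edgeR. DESeq2 also called 0 members in each. At an unadjusted p under 0.05 in edgeR these comparisons held 2, 5 and 2 members, and 728, 1061 and 1395 of all 13766 genes. Groups XYF and XXM, which differ in both factors, did not overlap in 7 of the 9 members, all higher in XYF, a separation found for 0.523% of genes. Of these 7, H2-Q7 and Nlrc5 entered the table only through XYF.

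Whether the gonad difference depended on the sex chromosomes was tested by the interaction, in which 0 of 13766 genes (0%) passed with edgeR and 444 had an unadjusted p under 0.05. Psmb8 (-0.76, SE 0.22) had the smallest p among the members, 0.00191 unadjusted, followed by B2m (-0.43, SE 0.14) at 0.00365; their adjusted p was 0.999. H2-D1 and H2-K1 had unadjusted p of 0.0189 and 0.0401. The interval of the interaction ran from -1.21 to -0.31 for Psmb8 and from -0.53 to 1.06 for H2-Q5, the only member with a positive value, 0.26. The calls in XYM against XYF and their absence in XXM against XXF are therefore not shown to differ.

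XYM replicate 1 was the highest XYM library for 9 of 9 members and was among the 8 highest of all 23 libraries for each. XYF replicate 1 was the lowest XYF library for 7 of 9. Against the 5 XXF libraries, XYF replicate 1 lay inside the range for 6 members and above it for 3. Interferon response genes set the same libraries apart: 11 such genes summed to 74.8 CPM in XYM replicate 1, against 33.9 to 46.0 in the other 5 XYM libraries, and to 67.4 in XYF replicate 1, against 97.8 to 125 in the other 5 XYF libraries. Without XYM replicate 1, the members called were 7 for the gonad effect (of 49 genes called in all), 7 for XYM against XYF (of 50), 1 for the sex chromosome effect (of 36) and 1, H2-Q7, for XYM against XXF (of 20). Without XYF replicate 1 they were 6 (of 42), 5 (of 42), 5 (of 48) and 0 (of 19), and 5 for XYF against XXF (of 46). With all libraries 22, 31, 39, 18 and 40 genes were called in these comparisons. Every called direction held without either library. For the members called in XYM against XYF, these were the lowest XYF and the highest XYM library. Leaving either out could only widen that difference, and leaving out XYF replicate 1 could only widen XYF over XXF for the members called there. Their omission is therefore no check of those directions.

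**Figure D4:**
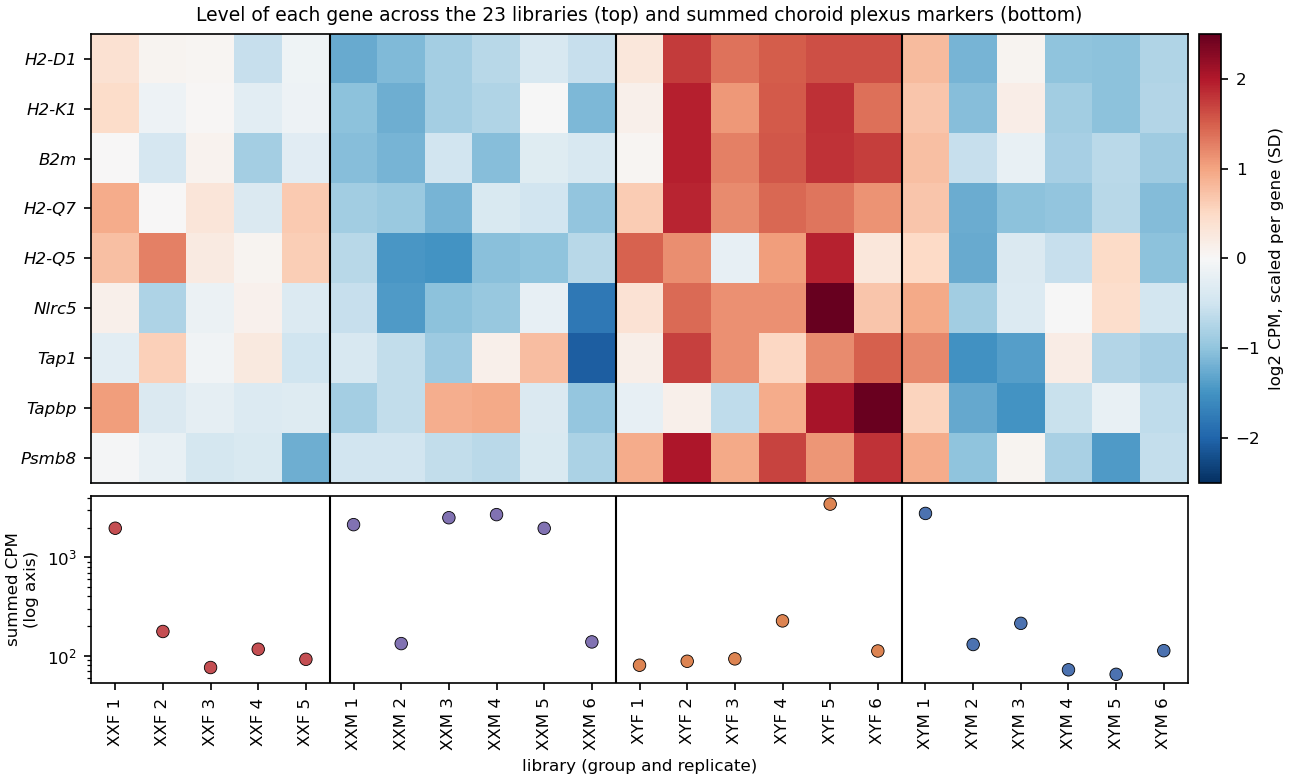
Level of each gene in each of the 23 libraries (upper panel, log2 CPM scaled per gene, red high and blue low, in SD) and summed CPM of 9 choroid plexus markers (lower panel, log axis). XYF replicates 2 to 6 are the reddest columns, XYM replicate 1 is red among blue XYM columns, and 7 libraries stand at 1966 CPM or more in the lower panel.

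Choroid plexus RNA varied between libraries within every group, and none of its 9 markers was called in any of the 8 comparisons. The groups were still not balanced in it. The markers summed to a mean of 1601 CPM (SD 1165) in XXM, 486 (831) in XXF, 677 (1365) in XYF and 563 (1089) in XYM. All 9 were higher in XXM than in XXF (median log2 difference 1.76) and lower in XYM than in XXM (median -1.55). H2-D1 stood at 53.2 CPM in the rich XXF library and at 39.0 to 48.1 in the poor ones, at 31.4 to 41.4 in the rich XXM libraries and 33.1 to 39.3 in the poor, at 79.3 in the rich XYF library and 51.7 to 82.5 in the poor, and at 61.0 in the rich XYM library and 32.4 to 48.2 in the poor. The rich library was the highest of its group for 6 of 9 members in XXF, 2 of 9 in XYF and 9 of 9 in XYM. In XXM, with 4 rich libraries, the highest was replicate 5 for 6 members, replicate 4 for 2 and replicate 1 for 1, all of them rich. The part of choroid plexus RNA in these levels was not tested beyond the fit that follows. In the 16 libraries poor in choroid plexus RNA (XXF 4, XXM 2, XYF 5, XYM 5), H2-D1 still differed by gonad by -0.64 (adjusted p = 0.00633), H2-K1 by -0.65 (adjusted p = 0.00633) and H2-Q7 by -1.57 (adjusted p = 0.00436), whereas H2-Q5 (-1.14, adjusted p = 0.132) and B2m (-0.39, adjusted p = 0.0590) were not called. XYM against XYF called the same 5 members there, XYF against XXF called those 3 and H2-K1, and the sex chromosome effect called Nlrc5 (1.0, adjusted p = 0.0427) but not B2m (0.30, adjusted p = 0.366). Over all genes that fit called 17 for the gonad effect, 44 for XYM against XYF, 40 for XYF against XXF and 24 for the sex chromosome effect. It holds only 2 XXM libraries.

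Markers of other cell types were set beside these differences. None of 10 microglia markers was called in any comparison; they summed to 602 ± 61.1 CPM in XYF (529 to 669), 540 ± 23.5 in XXF (504 to 565), 542 ± 40.1 in XXM (489 to 581) and 523 ± 41.7 in XYM (487 to 599). Of 8 border and blood macrophage markers 3 were in the table, with sums of 10.1 to 24.5 CPM in XYF and 9.71 to 20.4 in XYM, and none was called. The 8 endothelial, 6 astrocyte, 6 oligodendrocyte and 6 neuron markers gave 0 calls in all 8 comparisons as well. Of 4 blood markers 2 were in the table, and both were lower in XYM than in XYF: Hba-a1, a haemoglobin chain, at a log2 difference of -1.08 (adjusted p = 0.0244) and Alas2, an enzyme of haem synthesis in red cells, at -1.40 (adjusted p = 0.0224). Their sum ran from 88.4 to 211 CPM in XYF, 44.9 to 109 in XXF, 51.6 to 95.2 in XXM and 51.7 to 113 in XYM. It was lowest of the XYF libraries in replicate 1 and highest of the XYM libraries in replicate 1, as were 7 and 9 of the 9 class I genes, and its part in their differences was not tested. Of 11 T and natural killer cell markers 0 were found in the table.

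H2-Q4, the fifth heavy chain of its list in the table, differed by -0.27 (SE 0.10, adjusted p = 0.234) with the gonad. Among 8 class I-like heavy chains, H2-T23, which encodes Qa-1 and is read by natural killer cell receptors, was lower in XYM than in XYF, at a log2 difference of -0.55 (SE 0.11, adjusted p = 0.0267), at 10.8 ± 1.44 against 15.9 ± 2.25 CPM (SD, n = 6 each). H2-T22, H2-T24, Fcgrt and Mr1 had gonad values from -0.18 to 0.17, none called.

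No proteasome gene other than Psmb8 passed the threshold in any of the 8 comparisons. Psmb9, an inducible subunit like Psmb8, had gonad and sex chromosome values of -0.51 (adjusted p = 0.199) and 0.39 (adjusted p = 0.612) at a mean of 1.75 CPM. Psmb10 (-0.16) and the activator subunits Psme1 (-0.10) and Psme2 (-0.05) had smaller gonad values. The 15 genes of the constitutive proteasome, Psmb1, Psmb4, Psmb7 and Psme3 the most abundant, gave 0 calls in all 8 comparisons, with gonad values from -0.18 to 0.02. The 9 transport and loading genes also gave 0 calls: Calr, Canx, Pdia3 and Hspa5, chaperones of the endoplasmic reticulum, had gonad values from 0.05 to 0.20, on the other side of 0 from Tap1 and Tapbp.

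Among the regulators of class I transcription, Creb1, Nfyb, Nfyc and Stat2, which include factors of the CRE and CCAAT boxes, had values from -0.06 to 0.12 in both main effects and none was called.

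MHC class II genes, the presenters of proteins taken up from outside, gave 0 calls. Of 9 in the list, Cd74, H2-Aa, H2-Eb1 and H2-DMb1 were in the table, and their sex chromosome values ran from -0.33 to 0.00. Of 10 genes listed as class I receptors, Lilrb3, Lilrb4a, Pilrb1, Pirb, Klrd1, Klrk1, Cd8a and Cd8b1 were not in the table. Lrp1 and Trem2, the 2 that were, are not established receptors of class I molecules, and neither was called. Receptors of class I molecules were therefore not assessed. Interferon response genes moved in the same comparisons as the members: of 11 in the table, 8 were called higher with XY (0.24% of all genes were), 6 lower with testes (0.145%), 8 higher in XYF than in XXF (0.262%) and 9 lower in XYM than in XYF (0.225%). All 11 had the same sign as those called in each of these comparisons, and 0 were called in the other pairwise comparisons. Ifit1, an antiviral effector, averaged 10.7 ± 2.48 CPM in XYF against 3.54 ± 1.12 in XXF, 2.34 ± 0.579 in XXM and 3.16 ± 1.45 in XYM (SD, n = 6, 5, 6 and 6). These comparisons share libraries with those of the members, so the counts are given side by side only.

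**Figure D5:**
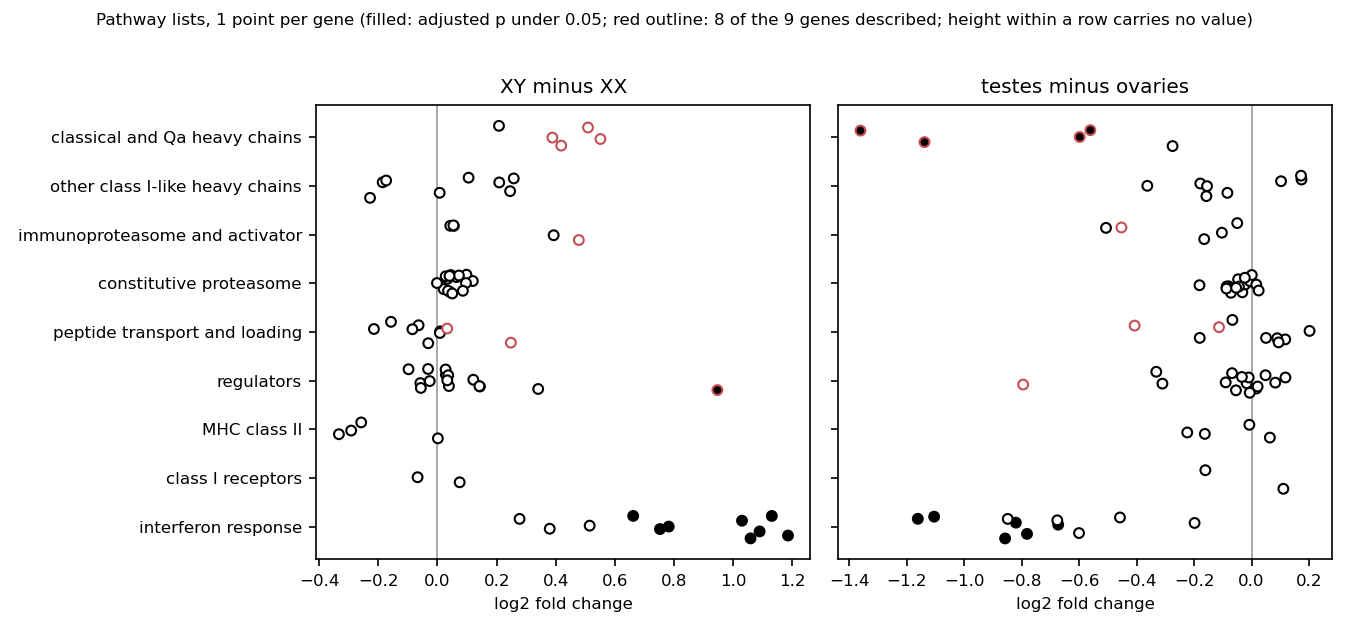
Log2 fold changes of genes of the pathway lists for the sex chromosome effect (left) and the gonad effect (right), 1 point per gene, filled where the adjusted p was under 0.05 and outlined in red for the 8 members that stand in a list (B2m is in none). The interferon response row and the heavy chain row lie right of 0 on the left and left of 0 on the right, while the constitutive proteasome row is narrow around 0.

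Across the 23 libraries, the 10 genes most alike to the mean scaled level of the 9 members included Gbp5 (Pearson's r = 0.94), Ifit1 (0.93), I830012O16Rik, Ifit3, Gbp2, Ifitm3, Isg15, Gbp3 and Irf7 (0.89). These correlations share the group differences and the libraries' depth and makeup, and are a description. With each group's mean subtracted, the 10 most alike genes were Msx1as (0.81), Lgals3bp, Ifitm3, Msx1, Cd74, Ifit3, Tjp3, Slc12a4, Nxn and Map3k15 (0.78), of which 2 were on the first list. Among the members, H2-K1 and H2-D1 were closest to the mean of all 9 (r = 0.97 and 0.96), and Tapbp (0.68) and H2-Q5 (0.77) farthest. Within groups H2-K1 (0.92) was again closest and H2-Q5 (0.47) farthest.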

How the data were processed

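RNA of 23 hippocampi, each from another animal, was read on both ends; the libraries came from a strand-specific kit with ribosomal RNA depletion, per the labels' protocols. The deposited table holds estimated counts per gene, raw values that need not be whole per the file headers, and normalized log2 values. The file headers state a lower limit of 20 on raw values, which RefSeq genes had to meet in 100% of the libraries in 1 group or more. H2-Q7 and Nlrc5 met it only in XYF and H2-Q5 only in XXF. The deposited log2 values equal the log2 count plus a constant for each library, less the XXF median, to within 1.33e-06 over 13753 genes. Mouse build mm10 and DESeq are named in the submitters' processing notes. The sources used here do not state the aligner, the counting program or whether counting used strand. No column of values lacked a library.

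Groups came from the labels for sex chromosome and gonad; replicate numbers follow accession order and only name libraries. Estimated counts were rounded and fitted in edgeR 4.0.16 (R 4.3.3) with 1 mean per group, all 23 libraries, trimmed mean of M-values scaling and quasi-likelihood tests. The filterByExpr function removed 0 genes. Benjamini-Hochberg adjustment ran over all 13766 genes, and a gene was called at an adjusted p under 0.05; all tests were 2-sided. CPM is counts per 1000000 of the scaled library total, or of the unscaled total for Xist and the Y-linked genes. The prior count of log2 CPM is 2. Standard errors (SE) are the fold change over the root of the F statistic and are approximate. Fits were tested on simulated data. Alternatives used DESeq2 1.42.0, limma 3.58.1 (voom, voom with sample weights, and the deposited log2 values), other scalings, a mean CPM minimum of 1, only the groups compared, each library left out, and an exact permutation test over 426888 assignments within strata. A fit on libraries poor in choroid plexus RNA was added after the data were seen. The members and gene lists were chosen with earlier results of these data known. The text names the 9 members, list genes that were called, at most 4 uncalled genes per list by mean CPM, and the 10 genes most alike to the members, less 1 gene that is not reported here. Promoters came from RefSeq on GRCm38.p6 and the positions of the 9 genes from the deposited table. Gene types, exon lengths and overlapping genes came from the GENCODE annotation of GRCm38.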

Additional observations from a re-analysis of the deposited data

Results flagged for a closer look

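Each gene was checked in each group for a library far from the rest, by Dixon's test at the 95% level, and 4 of 36 combinations of gene and group had one, where chance gives about 1 in 20. H2-D1 stood at 51.7 CPM in XYF replicate 1, below the other 5 XYF libraries at 73.0 to 82.5. B2m stood at 86.2 CPM in the same library, against 113 to 132 in the others. H2-Q7 stood at 1.81 CPM in XYM replicate 1, above the other 5 XYM libraries at 0.512 to 0.748. Tapbp stood at 31.7 CPM in XXF replicate 1, against 27.4 to 27.8 in the other 4.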

How the results depend on the processing

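Over 32 alternatives (31 for the interaction), 2214 of 2295 values of single members kept their direction and their side of the threshold, 26 lost a call, 30 gained one and 25 changed sign, none of the latter a call. Members called for the sex chromosome effect numbered 2, and 5 with DESeq2, 1 with limma on the deposited log2 values, 1 in the libraries poor in choroid plexus RNA and 0 with the exact permutation test; with 1 library left out they numbered 1 to 5 (1 without XXF replicate 2, XXF replicate 4, XXM replicate 2 or XYM replicate 1, 4 without XYM replicate 2 or 5, and 5 without XYF replicate 1). For the gonad effect they numbered 5, and 1 with the exact permutation test, 3 in the libraries poor in choroid plexus RNA and 5 to 7 with 1 library left out. For XYF against XXF they numbered 3, and 5 with DESeq2 and 2 to 5 with 1 library left out. For XYM against XYF they numbered 5, and 3 with only the groups compared and 5 to 7 with 1 library left out. For XYM against XXF they numbered 0, and 0 to 1 with 1 library left out. The interaction, XYM against XXM and XXM against XXF had 0 throughout. Over all genes, the gonad effect had 22 calls, and 6 to 98 over the alternatives, and the sex chromosome effect 39, and 23 to 68. The cause of these shifts was not tested.

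Some uncalled values changed sign. In the libraries poor in choroid plexus RNA, the interaction of Nlrc5 was 0.21, against -0.32 with all libraries, and XYM over XXM was -0.025 for H2-Q7, -0.029 for Psmb8 and 0.0057 for Tapbp. With sample weights in limma voom, XYM over XXM was -0.010 for Tap1 and -0.0085 for Psmb8. Psmb8 in XYM over XXF was -0.091 with sample weights, -0.013 on the deposited log2 values and -0.089 in the libraries poor in choroid plexus RNA. With 1 library left out, XYM over XXM ran from -0.20 (without XYM replicate 1, against 0.25 with it) to 0.36 for H2-Q7, from -0.17 to 0.15 for Tap1 and from -0.066 to 0.18 for Psmb8. XYM over XXF ran from -0.11 to 0.0080 for B2m, from -0.053 to 0.25 for Nlrc5 and from -0.14 to 0.10 for Psmb8, and XXM over XXF from -0.056 to 0.025 for Tapbp.

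H2-Q5, H2-Q7 and Nlrc5 had as few as 9.25, 8 and 10.8 estimated counts in a library, which limits their precision. No paired analysis was possible because the labels give no replicate numbers that groups share.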
